A study of Homo sapiens with 48 samples.

Results

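The 44 genes described here encode integrins, the laminins, collagens and fibronectin that integrins bind, the proteins that link integrins to actin, the kinases and scaffolds of focal adhesions, 2 caveolins, and small GTPases and myosin light chain proteins. They were chosen by name, with earlier results of these data known. Of them 41 could be measured, among 19775 genes with a probe set that carries a single symbol. FLNA, LAMA3 and ITGB6 were not analysed here, the last because its probe sets are shared with another symbol. T47D-YA is a variant of the human breast cancer line T47D that the study describes as lacking insulin receptor substrate (IRS) proteins while keeping the IGF-I receptor. The cells were sublines labelled IRS-1 #10 and IRS-1 #20 for the first isoform and IRS-2 #1 and IRS-2 #6 for the other, so that an isoform was represented by 2 clones. All of them were starved of serum for 24 h and then received IGF-I, or only SFM+FN as the control, for 4 h or 24 h. SFM stands for serum-free medium and FN for added fibronectin, itself a protein that integrins bind. The controls are called SFM below, as in the labels, although they held fibronectin as well. Clone, treatment and time made 16 groups with 3 arrays in each (A, B and C), 48 Affymetrix HG-U133 Plus 2.0 arrays in all. T47D-YA cells without an IRS construct were not analysed here. The promoter that drives the IRS constructs is not given in the sources used here.

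Integrins are pairs of an alpha and a beta subunit that span the plasma membrane and bind matrix proteins outside the cell. Inside the cell, talins, alpha-actinins, tensins, zyxin and the complex of integrin-linked kinase with PINCH and parvin tie the beta subunit to actin, while focal adhesion kinase, SRC and p130Cas signal from the site. Laminins are trimers of an alpha, a beta and a gamma chain and, with type IV collagen, form the basement membrane on which mammary epithelium rests. Myosin light chain sets the tension on adhesions, and IRS proteins carry the signal of the IGF-I receptor to the PI3-kinase and MAP kinase pathways.

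The values are log2 summaries of probe sets, so a difference of 1 is 2-fold. They were normalized between arrays by the authors with GC-RMA and lay between 3.13 and 15.36, with array medians from 7.39 to 7.51. Levels are given for each gene on its own probe set and cannot be ranked between genes. Arrays of a group correlated at 0.994 to 0.998 over all probe sets. The luminal epithelial markers KRT8, KRT18, KRT19, EPCAM, CDH1, GATA3 and ESR1 had medians over all arrays between 10.50 (ESR1) and 14.81 (KRT18). Of 3 IRS1 probe sets, 1 lay between 5.25 and 6.42 on all arrays labelled IRS-1 and between 7.65 and 8.98 on all arrays labelled IRS-2, the opposite order to the labels. The other 2 IRS1 probe sets overlapped, at 4.29 to 4.80 against 4.65 to 5.37 and at 7.76 to 8.28 against 8.04 to 8.32. For IRS2, 1 of 2 probe sets overlapped between all 4 clones, and the other lay between 6.98 and 7.59 on arrays labelled IRS-1 and between 6.74 and 7.04 on arrays labelled IRS-2. Whether these probe sets lie in the part of the transcripts that the constructs carry is not given in the sources used here, so the array values do not settle the labels. The isoform names below are those of the labels, and any direction between isoforms rests on them.

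Promoter windows from RefSeq (build GRCh38.p14), which run from 250 bases before to 50 bases after an annotated start, were found for 37 of the 44 genes, 68 windows in all. RND3 and ZYX are shown because they responded most to IGF-I, and ITGA6 because it differed most between the lines labelled IRS-1 and IRS-2. Capitals mark a CArG box, the sequence that serum response factor binds, and the letters TATAAA, each searched on both strands. RND3 is at chr2:150487618-150487917 (minus strand), ZYX at chr7:143381095-143381394 (plus strand), and the more upstream of the 2 ITGA6 windows at chr2:172427086-172427385 (plus strand).
RND3: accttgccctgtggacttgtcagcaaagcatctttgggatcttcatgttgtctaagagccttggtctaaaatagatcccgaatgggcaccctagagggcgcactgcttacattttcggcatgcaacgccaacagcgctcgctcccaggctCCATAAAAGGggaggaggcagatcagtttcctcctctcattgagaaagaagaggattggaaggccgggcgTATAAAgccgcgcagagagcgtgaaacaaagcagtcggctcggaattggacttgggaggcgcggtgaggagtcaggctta
ZYX: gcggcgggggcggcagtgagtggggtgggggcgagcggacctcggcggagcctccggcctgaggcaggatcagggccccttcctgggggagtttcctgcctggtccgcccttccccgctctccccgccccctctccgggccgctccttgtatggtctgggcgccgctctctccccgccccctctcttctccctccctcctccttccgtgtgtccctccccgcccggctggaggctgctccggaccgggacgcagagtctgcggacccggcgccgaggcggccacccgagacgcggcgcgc
ITGA6: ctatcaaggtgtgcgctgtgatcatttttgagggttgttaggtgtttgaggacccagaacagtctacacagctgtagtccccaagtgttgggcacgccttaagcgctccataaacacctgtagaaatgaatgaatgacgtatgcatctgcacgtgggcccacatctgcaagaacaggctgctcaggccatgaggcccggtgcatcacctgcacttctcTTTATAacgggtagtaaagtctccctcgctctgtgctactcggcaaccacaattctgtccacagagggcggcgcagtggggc
In the RND3 window the CArG box begins at position -100 and TATAAA at position -30 relative to the start, without overlap. The ZYX window holds neither, and the ITGA6 window holds TATAAA on the opposite strand only, at position -32. The other ITGA6 window, further downstream, holds neither. A CArG box was found in 6 of the 68 windows, those of ACTN1, FLNA, ITGB6, MYLK and RND3 (in 2 windows of RND3 that overlap), against 1.299% of all 34796 different windows. TATAAA was found in 7 of the 68 windows, against 11.58% of all. These matches describe the letters only.

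After 4 h of IGF-I, ZYX and RND3 were the members that rose past the threshold, and only in IRS-2 #6, by 1.59-fold and 1.88-fold. MYL9 rose by less than 1.5-fold in 3 of the 4 clones, and TNS1 fell in the same 3. A gene was called when limma gave a Benjamini-Hochberg adjusted p under 0.05 over all probe sets and the difference was at least 1.5-fold. In bulk RNA, fewer cells of a kind and less RNA per cell cannot be told apart. In the order IRS-1 #10, IRS-1 #20, IRS-2 #1, IRS-2 #6, which is kept below, limma called 0, 0, 0 and 2 of 41 members, where 0.0860%, 0.0860%, 0.142% and 0.303% of all genes were called. In limma, 10, 10, 12 and 10 members had an unadjusted p under 0.05, and the methods' t-test at the study's unadjusted threshold called 0, 0, 0 and 2 members. Past the adjusted p alone, whatever the fold, were 2, 5, 4 and 4 members, where 2.65%, 4.71%, 2.32% and 3.46% of all genes passed. The median difference over the 41 members ran from -0.04 in IRS-1 #10 to 0.04 in IRS-2 #6, and over all genes it was near -0.01 in each clone. Nothing in the labels says that the 3 arrays of a group came from separate cultures, so every p-value here measures the spread between arrays.

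RND3 encodes a small GTPase that is always bound to GTP and loosens actin stress fibres. In IRS-2 #6 its log2 values at 4 h were 8.86, 8.93 and 8.95 in SFM and 9.95, 9.75 and 9.78 with IGF-I, a difference of 0.91 (SE 0.06, limma adjusted p = 8.71e-15). In IRS-2 #1 they were 9.60, 9.58 and 9.60 in SFM and 10.20, 10.14 and 10.15 with IGF-I, a difference of 0.57 (adjusted p = 2.45e-08). The IGF-I arrays of both clones lay above every SFM array of the same clone. IRS-1 #20 had 8.87, 8.97 and 9.01 in SFM against 9.58, 9.44 and 9.31 with IGF-I, and IRS-1 #10 had 8.06, 8.18 and 8.18 against 8.66, 8.54 and 8.70. Each of these 2 differences was 0.49 (adjusted p = 8.81e-07 and 1.4e-06), and again the arrays did not overlap. RND3 has 1 probe set, and its differences in the 4 clones kept their adjusted p in each of 9 other limma settings tried. The methods' t-test after Benjamini-Hochberg adjustment called 0 members in any clone at either time. Without letter C, the rise in IRS-1 #20 was 0.59 and past 1.5-fold.

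ZYX encodes zyxin, a LIM domain protein of focal adhesions and stress fibres. In IRS-2 #6 it went from 9.30, 9.27 and 9.16 in SFM to 9.87, 9.98 and 9.90 with IGF-I, a difference of 0.67 (SE 0.07, adjusted p = 5.25e-10). IRS-1 #20 had 9.27, 9.26 and 8.97 in SFM and 9.63, 9.78 and 9.82 with IGF-I, and its difference of 0.58 stayed just under 1.5-fold (adjusted p = 7.04e-08). IRS-2 #1 had 9.21, 9.02 and 9.16 in SFM and 9.69, 9.55 and 9.65 with IGF-I, a difference of 0.50 (adjusted p = 1.79e-06). In these 3 clones the arrays with and without IGF-I were apart. Without letter A or B, ZYX passed 1.5-fold in IRS-1 #20 as well (0.68 and 0.60). In IRS-1 #10 they overlapped, at 9.40, 9.55 and 9.35 in SFM and 9.57, 9.53 and 9.56 with IGF-I, a difference of 0.12 (adjusted p = 0.467). The other ZYX probe set gave 0.83 in IRS-2 #6 (adjusted p = 5.25e-10) and 0.49 over the mean of the 4 clones, beside 0.47 for the one shown.

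MYL9 encodes the regulatory light chain of smooth muscle and nonmuscle myosin, which the kinase MYLK phosphorylates. In IRS-2 #6 its values were 10.38, 10.35 and 10.28 in SFM and 10.94, 10.80 and 10.91 with IGF-I, a difference of 0.55 (adjusted p = 1.19e-07). The rises of 0.44 for IRS-1 #20 (adjusted p = 2.7e-05) and 0.41 for IRS-2 #1 (adjusted p = 8.36e-05) were also without overlap between arrays. IRS-1 #10 overlapped, with a difference of 0.07, and MYLK itself ranged from -0.03 to 0.10 over the clones. Without the arrays of letter A, the MYL9 difference in IRS-2 #1 was 0.36 and no longer passed (adjusted p = 0.0577). Without letter B, the rise in IRS-2 #6 was 0.59 and past 1.5-fold. The other MYL9 probe set rose by 0.20 over the mean of the 4 clones (adjusted p = 1.03e-05), against 0.37.

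TNS1 encodes tensin, which binds the tails of beta integrins and actin. All IGF-I arrays at 4 h lay below all SFM arrays of their clone: 9.17, 9.45 and 9.26 in SFM became 8.93, 8.83 and 8.87 in IRS-2 #6, a difference of -0.42 (adjusted p = 0.000318). TNS1 also fell by 0.33 in IRS-2 #1 (adjusted p = 0.0102) and by 0.28 in IRS-1 #20 (adjusted p = 0.0302), while the difference of -0.21 in IRS-1 #10 did not pass. Leaving out array letters weakened these: without letter B the adjusted p in IRS-2 #6 was 0.05 and no longer under the threshold, and without A, B or C in turn that in IRS-1 #20 was 0.129, 0.172 and 0.147. For IRS-2 #1 it was 0.233 without A and 0.533 without C. Of the 4 other TNS1 probe sets, 3 were lower with IGF-I over the mean of the clones (-0.14, -0.14 and -0.11, all past the adjusted p) and 1 was at 0.08 (adjusted p = 0.454). Averaged over its probe sets, the TNS1 differences were -0.12 in IRS-2 #1 and -0.06 in IRS-1 #20, neither past the test.

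**Figure D1:**
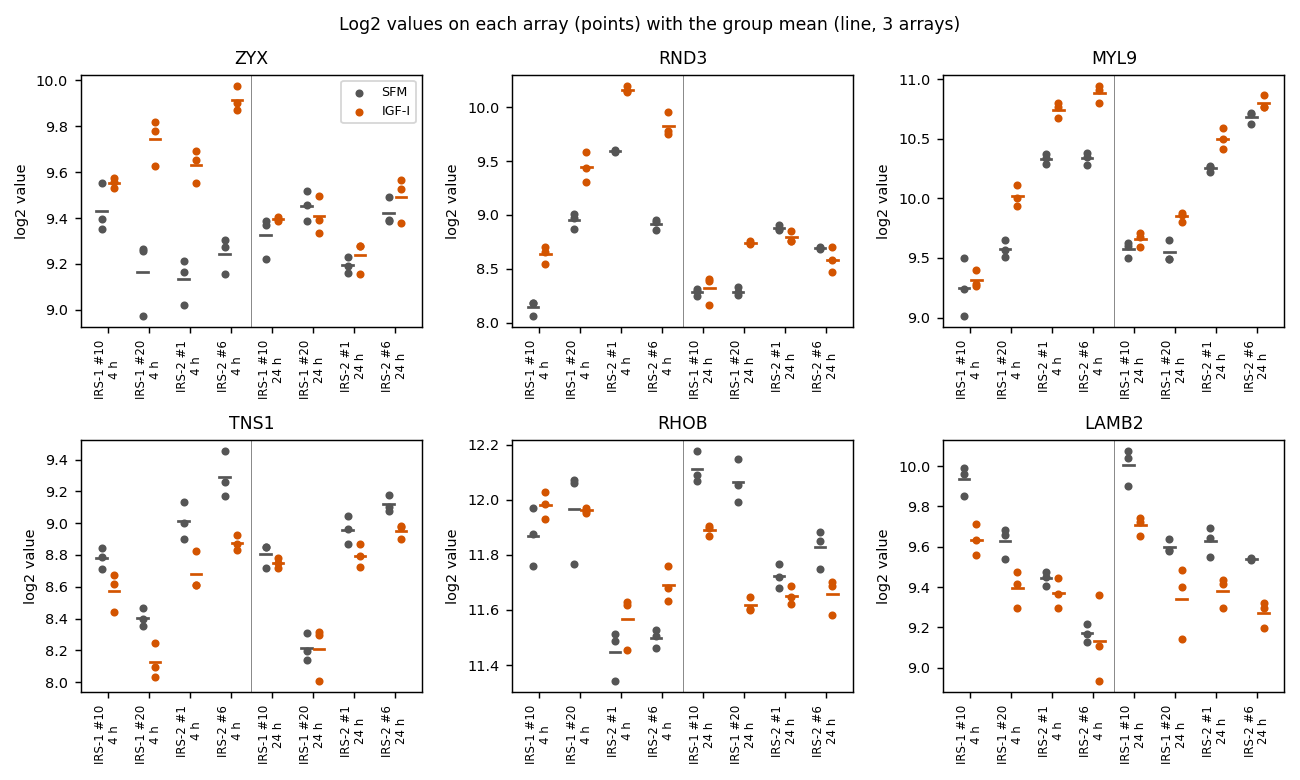
Log2 values of ZYX, RND3, MYL9, TNS1, RHOB and LAMB2 on each array (points, 3 per group) with the group mean (line), by clone at 4 h (left of the thin line) and 24 h (right of it), SFM in grey and IGF-I in orange. RND3 lies higher with IGF-I in all 4 clones at 4 h, at 24 h the arrays with IGF-I lie apart and above those in SFM in IRS-1 #20 alone, and LAMB2 lies lower in all 4 clones at 24 h. Vertical axes differ between panels and do not start at 0.

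Among the other members at 4 h, the integrins stayed between -0.18 and 0.25 in every clone. The alpha subunits ITGA2, which binds collagen, and ITGA6, which binds laminin, had positive differences in all 4 clones (0.04 to 0.22 and 0.05 to 0.25). ITGA1 (-0.14 to 0.22), ITGA3 (-0.18 to -0.02), the fibronectin receptor subunit ITGA5 (-0.07 to 0.18) and ITGAV (-0.08 to 0.06) did not pass in any clone. The beta subunits ITGB1, the common partner of most of these alpha chains, ITGB3, the hemidesmosome subunit ITGB4, ITGB5 and ITGB8 ran from -0.13 to 0.13 together, and none passed. Of the matrix ligands, LAMB2, a laminin beta chain, fell by 0.30 in IRS-1 #10 (adjusted p = 0.0173), a result that was lost without letter B (-0.23, adjusted p = 0.343) or C (-0.32, adjusted p = 0.171) and under median centring (adjusted p = 0.0504). The other laminin and collagen chains and FN1 lay between -0.21 and 0.17. PTK2, focal adhesion kinase, fell by 0.20 in IRS-1 #20 (adjusted p = 0.0352), and this was lost without letter B (adjusted p = 0.175) or C (-0.08, adjusted p = 0.908) and for the mean of its probe sets (-0.05, adjusted p = 0.763). Its partners SRC and BCAR1 (p130Cas) stayed between -0.04 and 0.15, and the caveolins CAV1 and CAV2 between -0.04 and 0.14.

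Averaged over the 4 clones at 4 h, a contrast added after the data were seen, 12 of 41 members passed the adjusted p, where 17.2% of all genes did. The rises were RND3 (0.62, SE 0.03, adjusted p = 3.45e-20), ZYX (0.47, adjusted p = 4.23e-15), MYL9 (0.37, adjusted p = 1.2e-11), ITGA6 (0.16), ITGA2 (0.14), RHOB (0.10), ITGA5 (0.09) and ITGB1 (0.08). The falls were TNS1 (-0.31, adjusted p = 3.57e-08), LAMB2 (-0.16), the laminin alpha chain LAMA5 (-0.14) and the talin TLN2 (-0.12). The integrin subunits that passed moved by at most 0.16. RND3, ZYX, MYL9 and TNS1 kept the adjusted p in the 9 other limma settings run for this contrast, and each of the other 8 lost it when a letter was left out. Without letter B this held for LAMB2 (-0.11), ITGA6 (0.11), ITGA2 (0.07), LAMA5 (-0.09), TLN2 (-0.06), ITGB1 (0.05) and ITGA5 (0.10), with adjusted p from 0.167 to 0.560. Without letter C it held for RHOB (0.06, adjusted p = 0.298), LAMA5 (-0.16, adjusted p = 0.0756), TLN2 (-0.14, adjusted p = 0.0551) and ITGA5 (0.09, adjusted p = 0.267), and without letter A for ITGB1 (0.07, adjusted p = 0.209) and ITGA5 (0.08, adjusted p = 0.109).

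After 24 h of IGF-I no member reached 1.5-fold. LAMB2 was lower by 0.25 to 0.30 in all 4 clones. The endosomal small GTPase RHOB was also lower in all 4 clones (-0.45 to -0.07), past the adjusted p in the IRS-1 clones. Called members numbered 0 of 41 in each clone by limma, where 0.298%, 0.314%, 0.0354% and 0.0657% of all genes were called. The unadjusted limma p was under 0.05 for 8, 8, 5 and 8 members, and the methods' t-test called 0 in each clone. Past the adjusted p alone were 3, 5, 2 and 1 members, where 11.0%, 10.4%, 4.55% and 5.76% of all genes passed.

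LAMB2 pairs with LAMC1 and an alpha chain in laminins. In IRS-1 #10 it went from 9.90, 10.07 and 10.04 in SFM to 9.74, 9.72 and 9.66 (-0.30, adjusted p = 0.00479), and in IRS-2 #6 from 9.53, 9.54 and 9.54 to 9.20, 9.30 and 9.32 (-0.27, adjusted p = 0.0244). The differences were -0.26 in IRS-1 #20 (adjusted p = 0.0186) and -0.25 in IRS-2 #1 (adjusted p = 0.0469), and in each of the 4 clones all IGF-I arrays lay below all SFM arrays. In each clone at least 2 of the letters, when left out, took the adjusted p above the threshold (0.0587 to 0.485), while the mean over the 4 clones (-0.27, SE 0.04, adjusted p = 1.31e-07) kept it in the 9 other limma settings run. In IRS-2 #1 the fall was also lost under median centring (adjusted p = 0.132), without the variance trend (0.0768) and with the replicate block (0.0550), and it passed in 3 of 9 settings. In IRS-2 #6 the SFM values of LAMB2 had themselves risen from 4 h (9.17, 9.22 and 9.13) to 24 h, by 0.37 (limma adjusted p = 0.000331). The 24 h difference in that clone is thus against a control that rose with time.

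RHOB fell most in IRS-1 #20, from 12.05, 11.99 and 12.15 in SFM to 11.60, 11.61 and 11.65 with IGF-I (-0.45, adjusted p = 1.43e-07). Over the 9 other limma settings this difference ranged from -0.48 to -0.17 and kept the adjusted p. RHOB fell by 0.22 in IRS-1 #10 (adjusted p = 0.00817), which was lost without letter B (adjusted p = 0.0529) or C (adjusted p = 0.0723) and for the mean of its probe sets (-0.04, adjusted p = 0.673). In IRS-2 #6 and #1 its differences were -0.17 (adjusted p = 0.0869) and -0.07, and its relative RHOC ranged from -0.07 to 0.03. From 4 h to 24 h the SFM values of RHOB had themselves risen by 0.24 to 0.33 in the clones other than IRS-1 #20. The difference of the RHOB response between isoforms was 0.21 and did not pass (limma adjusted p = 0.0821). RND3 remained higher with IGF-I in IRS-1 #20 (8.25, 8.28 and 8.33 in SFM, 8.76, 8.73 and 8.74 with IGF-I, 0.45, adjusted p = 1.54e-06). In the other clones its differences were 0.04, -0.09 and -0.11, none past the test. In IRS-1 #20 the SFM values of RND3 had themselves fallen by 0.66 from 4 h to 24 h (limma adjusted p = 1.93e-10). MYL9 rose by 0.30 in IRS-1 #20 (adjusted p = 0.00219), with a rise of 0.25 in IRS-2 #1 (adjusted p = 0.0266), and ITGA2 fell by 0.27 in IRS-1 #10 (adjusted p = 0.0294). COL4A5, a type IV collagen chain, went from 7.45, 7.32 and 7.21 to 6.54, 7.03 and 7.07 in IRS-1 #20 (-0.44, adjusted p = 0.00707), and without letter A it was -0.21 (adjusted p = 0.56). Without letter C it was -0.59 and past 1.5-fold. The SFM values of COL4A5 in that clone had themselves risen by 0.49 from 4 h to 24 h (limma adjusted p = 0.00158). MYL9 in IRS-1 #20 was lost without letter A (0.27, adjusted p = 0.124) and for the mean of its probe sets (0.14). In IRS-2 #1 it was lost without A, B or C in turn (adjusted p = 0.0898, 0.117 and 0.392) and without the variance trend (adjusted p = 0.0527). ITGA2 was lost without A (-0.21, adjusted p = 0.281) or C (adjusted p = 0.182) and for the mean of its probe sets (-0.09).

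**Figure D2:**
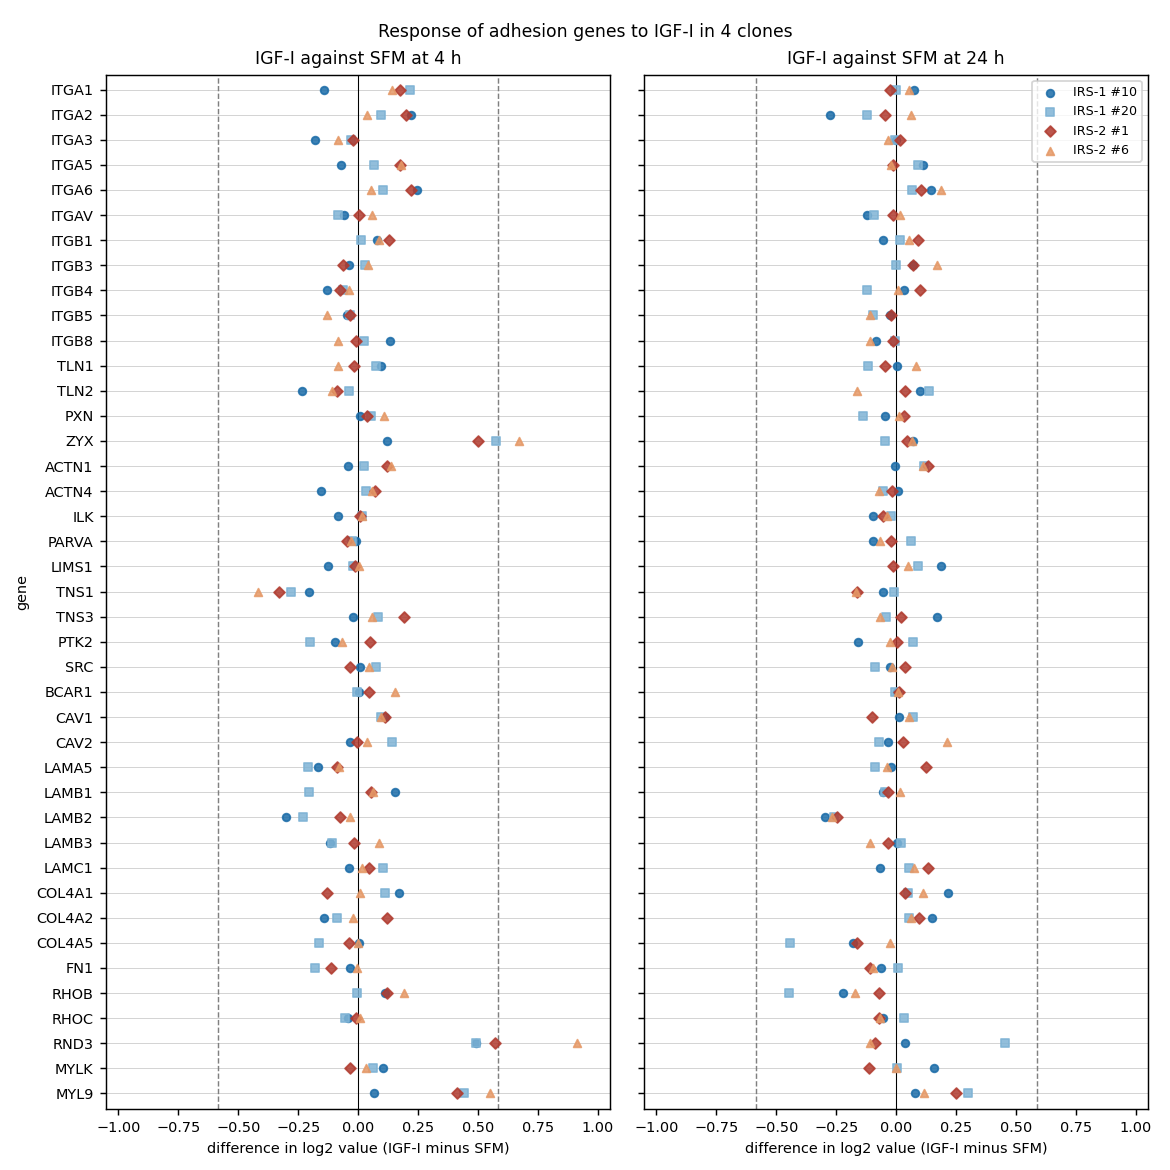
Difference in log2 value between IGF-I and SFM for 41 adhesion genes (rows, grouped by role) at 4 h (left) and 24 h (right), each point the mean of 3 arrays minus the mean of 3 arrays in 1 clone. Dashed lines mark 1.5-fold, which only RND3 and ZYX in IRS-2 #6 passed, both at 4 h.

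Averaged over the 4 clones at 24 h, 6 members passed the adjusted p, where 21.8% of all genes did. They were LAMB2 (-0.27), RHOB (-0.23, adjusted p = 2.12e-08), COL4A5 (-0.20, adjusted p = 0.00646), MYL9 (0.19, adjusted p = 3.4e-05), ITGA6 (0.13, adjusted p = 0.0257) and the alpha-actinin ACTN1 (0.09, adjusted p = 0.0144). RHOB ranged from -0.23 to -0.09 over the 9 other limma settings and kept the adjusted p in each. COL4A5 was lost without letter A (-0.13, adjusted p = 0.195) or C (adjusted p = 0.0676), and its other probe set gave 0.03. ITGA6 was lost without A (adjusted p = 0.0807) or C (0.09, adjusted p = 0.298), and ACTN1 without B (adjusted p = 0.141) or C (adjusted p = 0.0930). Over the clones at 24 h, the integrin beta subunits lay between -0.12 and 0.17, the kinases and scaffolds between -0.16 and 0.07, and the caveolins between -0.10 and 0.21.

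The responses at 24 h and 4 h differed for 7 members in a test of the difference averaged over the 4 clones, where 12.3% of all genes passed the adjusted p. RND3 (-0.54, SE 0.05, adjusted p = 8.46e-13), ZYX (-0.43, adjusted p = 2.17e-09), RHOB (-0.33, adjusted p = 2.69e-08), ITGA2 (-0.23, adjusted p = 0.0054) and MYL9 (-0.18, adjusted p = 0.00951) responded lower at 24 h. The difference was positive for TNS1 (0.21, adjusted p = 0.00707) and TLN2 (0.14, adjusted p = 0.0439). Both were lower with IGF-I at 4 h (-0.31 and -0.12). At 24 h neither passed (-0.10, limma adjusted p = 0.0737, and 0.03, adjusted p = 0.722). RND3, ZYX and RHOB kept the adjusted p in the 9 other limma settings run, over which RHOB ranged from -0.37 to -0.13. ITGA2 was lost without letter A (-0.19, adjusted p = 0.112) or B (-0.18, adjusted p = 0.168), MYL9 without A (-0.16, adjusted p = 0.151) or C (-0.16, adjusted p = 0.0917), and TNS1 without B (0.17, adjusted p = 0.142) or C (adjusted p = 0.0584). TLN2 was lost whichever letter was left out (adjusted p from 0.0960 to 0.494).

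The question whether IRS-1 and IRS-2 differ in how they carry the IGF-I signal to these genes was tested as the mean response of the clones labelled IRS-2 minus that of the clones labelled IRS-1. At 4 h limma called 0 of 41 members, where 0.0202% of all genes were called, and 0 passed the adjusted p, where 0.440% did, while 9 had an unadjusted p under 0.05. The smallest adjusted p belonged to RND3 (0.25, adjusted p = 0.106), and ZYX (0.24, adjusted p = 0.203) and MYL9 (0.23, adjusted p = 0.266) had differences of like size. At 24 h limma called 0 members, where 0.106% of all genes were called, and 6 had an unadjusted p under 0.05. RND3 alone passed the adjusted p (-0.34, SE 0.06, adjusted p = 0.00167), where 0.769% of all genes did. The responses behind it were 0.04, 0.45, -0.09 and -0.11 over the clones, and without letter B it was -0.32 (adjusted p = 0.164). The error of these contrasts holds the spread between arrays and leaves out that between clones.

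In SFM, without IGF-I, differences between clones reached 2.06 on the log2 scale for TNS3, which its other probe set did not show. They reached 1.98 for ITGA6, and the largest response of a member to IGF-I was 0.91. ITGA6, MYL9, LAMB1, ITGA2, RND3 and TNS3 were higher in the clones labelled IRS-2, by 1.5-fold or more in the mean of both clones and both times. Of 41 members 6 were called higher, where 3.22% of all genes were, and 0 lower, where 1.77% were. By the adjusted p alone, 22 were higher and 10 lower, where 64.8% of all genes passed in either direction. The median difference was 0.12 over the members and 0.04 over all genes. A stricter reading asks that each IRS-2 clone be called against each IRS-1 clone in the same direction, which ITGA6, ITGA2 and MYL9 met, 3 of 41 members, where 1.80% of all genes did.

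ITGA6 encodes the laminin receptor subunit that pairs with ITGB1 or ITGB4. Over 6 SFM arrays per clone its lowest, median and highest log2 values were 8.09, 8.48 and 8.66 for IRS-1 #10 and 9.10, 9.30 and 9.50 for IRS-1 #20. They were 9.97, 10.28 and 10.60 for IRS-2 #1 and 10.22, 10.47 and 10.58 for IRS-2 #6. No array labelled IRS-1 reached the lowest labelled IRS-2, and the 2 IRS-1 clones did not overlap either. The difference between isoforms was 1.497 (2.82-fold, SE 0.04, adjusted p = 3.6e-33), the 4 pairs of clones gave 1.01 to 1.98, and the IRS-1 clones differed by 0.85 (adjusted p = 2.97e-17). The 2 IRS-2 clones overlapped and differed by 0.13 (adjusted p = 0.127). Its other probe set gave 1.18 between isoforms (adjusted p = 6.75e-34).

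ITGA2 encodes the collagen receptor subunit that pairs with ITGB1. It ran from 8.09 to 8.35 (median 8.23) for IRS-1 #10 and from 8.23 to 8.66 (median 8.36) for IRS-1 #20. It ran from 8.82 to 9.17 (median 9.01) for IRS-2 #1 and from 8.83 to 9.04 (median 9.02) for IRS-2 #6. The isoforms did not overlap on any SFM array, while clones of the same isoform did. The difference was 0.69 (1.61-fold, adjusted p = 1.48e-19) and that of the other ITGA2 probe set was 0.30. The pair of IRS-2 #6 and IRS-1 #20, at 0.60, was under 1.5-fold without letter B (0.55). Under quantile normalization both pairs with IRS-1 #20 were under it, at 0.55 (IRS-2 #1) and 0.56 (IRS-2 #6).

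MYL9 ran from 9.02 to 9.63 (median 9.50) for IRS-1 #10 and from 9.49 to 9.65 (median 9.54) for IRS-1 #20. It ran from 10.22 to 10.37 (median 10.28) for IRS-2 #1 and from 10.28 to 10.72 (median 10.50) for IRS-2 #6. These ranges also left a gap between the isoforms. The difference was 0.91 (1.88-fold, adjusted p = 1.06e-27), with pairs of clones between 0.73 and 1.10. The other MYL9 probe set gave 0.21, so the size rests on the probe set shown.

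**Figure D3:**
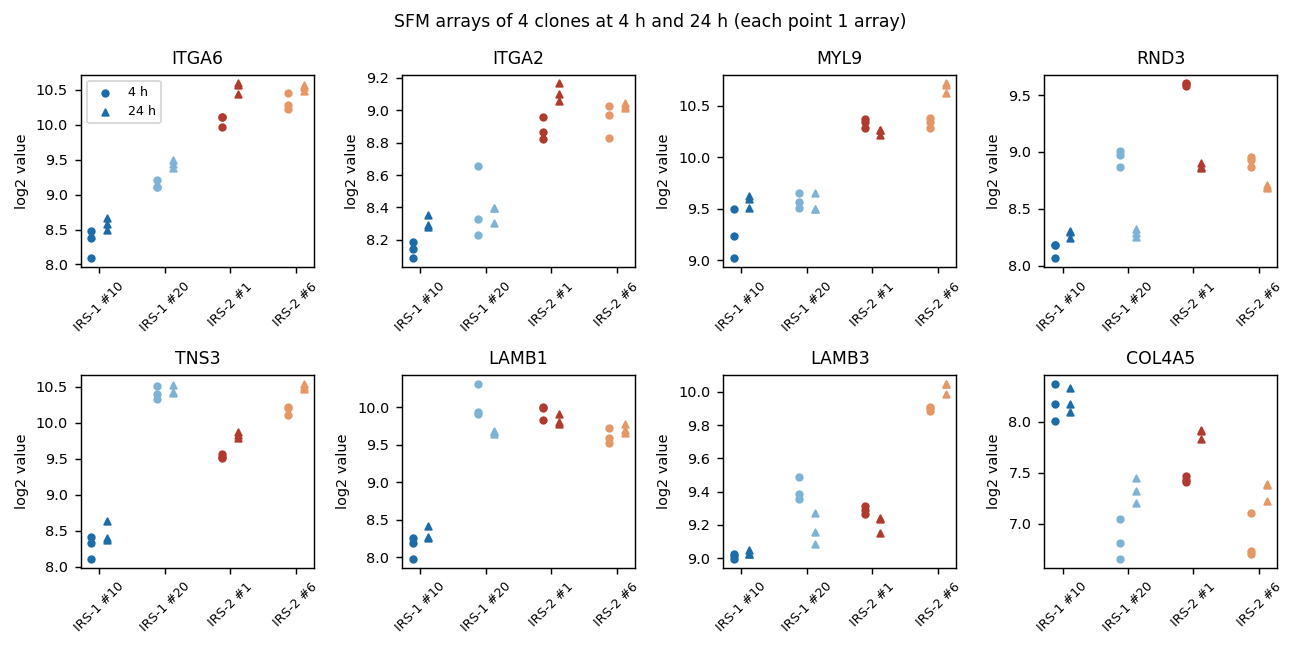
Log2 values of ITGA6, ITGA2, MYL9, RND3, TNS3, LAMB1, LAMB3 and COL4A5 on each SFM array by clone, circles at 4 h and triangles at 24 h, 3 arrays each. ITGA6, ITGA2 and MYL9 leave a gap between the clones labelled IRS-1 and IRS-2, whereas the arrays of IRS-1 #10 stand apart from all others in TNS3, LAMB1 and COL4A5, and those of IRS-2 #6 in LAMB3. Vertical axes differ between panels and do not start at 0.

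For LAMB1 and TNS3 the mean of an isoform hides its clones. LAMB1, a laminin beta chain, had medians of 8.26, 9.80, 9.87 and 9.68 over the clones, so that IRS-1 #10 alone was low. Between isoforms it differed by 0.73, but between the IRS-1 clones by 1.63 (SE 0.07, adjusted p = 2.21e-25), and its other probe set gave 1.41 there. TNS3, a tensin, had medians of 8.39, 10.42, 9.68 and 10.35 in the same order. It differed by 2.06 between the IRS-1 clones (adjusted p = 2.12e-33) and by 0.60 between isoforms, while IRS-2 #1 was lower than IRS-1 #20 by 0.75. The other TNS3 probe set gave -0.03 between the IRS-1 clones, so these values belong to the probe set shown. Without letter A the TNS3 difference between isoforms was 0.58 and under 1.5-fold.

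Between the IRS-1 clones 4 members were called, where 4.11% of all genes were: TNS3, LAMB1 and ITGA6 were higher in #20 and COL4A5 was lower. Median centring and leaving out letter B also took COL4A5 past 1.5-fold between the IRS-2 clones (-0.59 and -0.63). COL4A5 had medians of 8.18 in IRS-1 #10 and 7.13 in IRS-1 #20, a difference of -1.11 (adjusted p = 1.5e-16), and its other probe set gave 0.02. Between the IRS-2 clones 2 members were called, where 1.55% of all genes were. LAMB3, a beta chain of the laminin found in hemidesmosomes, was higher by 0.71 in #6 (medians 9.25 in #1 and 9.95 in #6, adjusted p = 3.75e-18), and TNS3 was higher by 0.66 (adjusted p = 5.22e-14).

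RND3, the member with the largest response to IGF-I, was also higher in the clones labelled IRS-2 in SFM, by 0.61 (adjusted p = 1.24e-21). Its SFM arrays ran from 8.06 to 8.31 and from 8.25 to 9.01 for IRS-1 #10 and #20, and from 8.86 to 9.60 and from 8.68 to 8.95 for IRS-2 #1 and #6. With both times pooled, IRS-1 #20 thus overlapped both IRS-2 clones, and the 2 times lay apart within it. At the same time it lay below IRS-2 #1, at 8.87 to 9.01 against 9.58 to 9.60 at 4 h and 8.25 to 8.33 against 8.86 to 8.91 at 24 h. It overlapped IRS-2 #6 at 4 h (8.86 to 8.95) and lay below it at 24 h (8.68 to 8.71).

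The remaining integrins differed less in SFM. Over all SFM arrays the alpha subunits ran from 6.01 to 6.53 (ITGA1), 8.20 to 8.87 (ITGA3), 8.77 to 9.29 (ITGA5) and 10.34 to 10.89 (ITGAV). The beta subunits ran from 10.96 to 11.85 (ITGB1), 8.40 to 8.72 (ITGB3), 9.74 to 10.58 (ITGB4), 10.17 to 10.92 (ITGB5) and 6.28 to 6.77 (ITGB8). ITGB1 was higher by 0.40 and ITGB5, which pairs with ITGAV, by 0.48 in the clones labelled IRS-2 (adjusted p = 8.59e-19 and 6.67e-19). ITGAV (0.16) and ITGA3 (0.12), a laminin receptor subunit, passed the adjusted p with small differences. ITGA1 (-0.003), ITGA5 (0.04), ITGB3 (-0.06), ITGB4 (-0.06) and ITGB8 (-0.10) did not pass. ITGB1 reached 1.5-fold in 1 pair of clones (0.63, IRS-2 #6 against IRS-1 #10), and this was 0.56 without letter B.

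Of the proteins that link integrins to actin, 7 were higher and 4 lower in the clones labelled IRS-2 by the adjusted p, which 64.8% of all genes passed in either direction. TNS3 was the 1 called. The talins ran from 7.78 to 8.50 (TLN1) and 7.98 to 8.94 (TLN2) over all SFM arrays, the alpha-actinins from 10.79 to 11.41 (ACTN1) and 11.19 to 11.64 (ACTN4), ZYX from 8.97 to 9.55 and TNS1 from 8.14 to 9.45. Paxillin PXN ran from 10.43 to 11.12, ILK from 11.28 to 11.73, PARVA from 8.86 to 9.64 and LIMS1 from 5.43 to 5.86. TNS1 (0.54), TLN2 (0.37), the parvin PARVA (0.32), ACTN1 (0.28), integrin-linked kinase ILK (0.16) and the PINCH protein LIMS1 (0.16) were higher. TNS1 passed 1.5-fold against IRS-1 #20 (0.68 and 0.90), and TLN2 in the pair of IRS-2 #6 and IRS-1 #10 (0.68, and 0.28 with its probe sets averaged), while the 4 other TNS1 probe sets gave 0.07 to 0.17 between isoforms. PXN (-0.27), the talin TLN1 (-0.26), ACTN4 (-0.11) and ZYX (-0.10) were lower, although the other ZYX probe set was higher by 0.25. PTK2 ran from 10.39 to 10.78, SRC from 9.63 to 10.32, BCAR1 from 8.31 to 8.90, CAV1 from 6.66 to 7.29 and CAV2 from 6.44 to 6.86. Among kinases and scaffolds BCAR1 (0.37) and SRC (0.34) were higher and PTK2 did not pass (-0.03). CAV2 was lower by 0.14 and CAV1 did not pass (0.03).

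The laminin chains differed in both directions. LAMB1 (0.73), LAMC1 (0.46) and LAMB3 (0.45) were higher and LAMA5 (-0.51) and LAMB2 (-0.35) lower in the clones labelled IRS-2. LAMA5, the alpha chain of the laminins of adult basement membrane, had medians of 10.29 and 10.09 in IRS-1 #10 and #20 against 9.61 and 9.77 in IRS-2 #1 and #6. LAMC1, their gamma chain, had medians of 9.42 and 9.47 against 9.78 and 10.08. The arrays of the isoforms did not overlap for LAMA5 or LAMC1. Nor did they for ITGB1, ITGB5, BCAR1, PARVA or TNS1, and the share of all genes without overlap was not counted. LAMB2 ran from 9.13 to 10.07 over all SFM arrays, COL4A1 from 6.64 to 7.09, COL4A2 from 6.59 to 7.03 and FN1 from 7.80 to 8.61. LAMA5 passed 1.5-fold in the pair of IRS-2 #1 and IRS-1 #10 (-0.70) and LAMB2 in that of IRS-2 #6 and IRS-1 #10 (-0.62). Under quantile normalization LAMA5 was also called lower between the isoforms (-0.60, adjusted p = 6.22e-18). Fibronectin FN1 (-0.23) and COL4A5 (-0.26) were lower, COL4A1 was higher by 0.10, and COL4A2 did not pass (0.02). LAMC1 was called in both pairs that hold IRS-2 #6 (0.62 and 0.60), and both were under 1.5-fold without letter B (0.57 and 0.56), under quantile normalization (0.55 and 0.51) and with probe sets averaged (0.55 and 0.30). Of the GTPase and myosin genes not yet given, RHOB (11.34 to 12.18 over all SFM arrays) was lower by 0.38, RHOC (12.50 to 12.95) was higher by 0.18, and MYLK (7.39 to 7.89) did not pass (0.04).

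**Figure D4:**
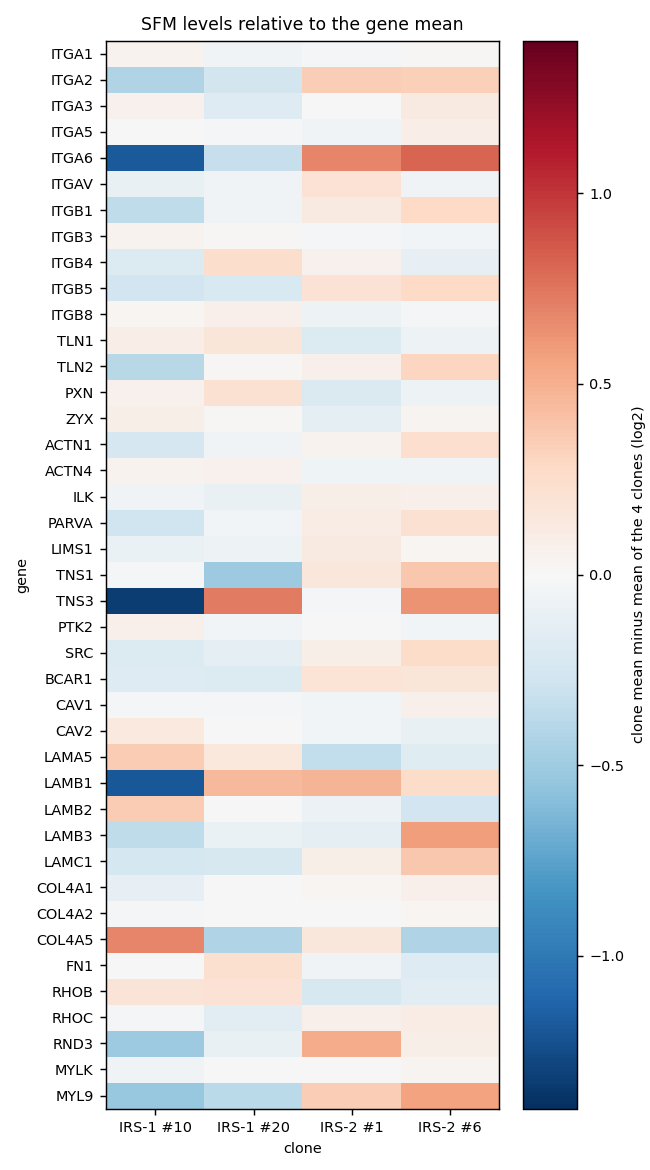
Mean SFM level of each gene in each clone (6 arrays) minus the mean of the 4 clones, on the log2 scale given by the colour bar, for 41 genes in rows. TNS3 and LAMB1 are lowest in IRS-1 #10, and ITGA6, ITGA2 and MYL9 are low in both clones labelled IRS-1 and high in both labelled IRS-2.

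Other measures moved with the clones in SFM as well, and their part in these differences was not tested. Of 4 mesenchymal markers (VIM, CDH2, ZEB1 and SNAI2), VIM was called higher in the clones labelled IRS-2, and the log2 of their summed linear levels ran from 9.46 to 9.73 on arrays labelled IRS-1 and from 9.98 to 10.17 on those labelled IRS-2. The 3 basal markers measured (KRT5, KRT14 and ACTA2) summed, on the same scale, to 9.85 to 10.17 and 10.25 to 10.44, and none was called. With background unknown, no level can be read as 0. Of 5 fibroblast markers COL1A1 was called lower, and the 5 summed, on the same scale, to 10.83 to 11.45 against 10.69 to 10.93. Of 3 endothelial markers none was called, and they summed to 9.77 to 10.09 against 9.67 to 9.95. The 7 luminal markers summed to 16.44 to 16.66 and 16.42 to 16.53, and none was called. The log2 difference between the 3' and 5' control probe sets of ACTB, a sign of RNA quality, had medians of 0.23, 0.19, 0.14 and 0.11 over the clones in the order above. Between treatments it was 0.17 in SFM and 0.15 with IGF-I.

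With time in SFM, RND3 was the 1 member called. Time in serum-free medium and time with the added fibronectin cannot be told apart in this comparison. From 4 h to 24 h it fell by 0.71 in IRS-2 #1 (adjusted p = 2.67e-11), by 0.66 in IRS-1 #20 (adjusted p = 1.93e-10) and, under 1.5-fold, by 0.22 in IRS-2 #6 (adjusted p = 0.0164). Its values in IRS-2 #1 were 9.60, 9.58 and 9.60 at 4 h and 8.87, 8.86 and 8.91 at 24 h. Called members were 0, 1, 1 and 0 over the clones, where 0.0202%, 0.541%, 0.329% and 0.647% of all genes were called. In limma 11, 17, 15 and 24 members had an unadjusted p under 0.05. Past the adjusted p alone were 3, 13, 9 and 15 members, where 2.58%, 25.8%, 7.65% and 16.1% of all genes passed. COL4A5 was higher at 24 h by 0.45 to 0.49 in the 3 clones other than IRS-1 #10, RHOB by 0.24 to 0.33 in the 3 other than IRS-1 #20, and ITGA6 by 0.30 and 0.47 in IRS-1 #20 and IRS-2 #1, all past the adjusted p. ITGB4 was higher by 0.31 and 0.43 and TNS3 by 0.29 and 0.32 in the IRS-2 clones, and PXN by 0.13 to 0.31 and ILK by 0.16 to 0.18 in all but IRS-1 #10. Lower at 24 h, besides RND3, were LAMB1 (-0.39), FN1 (-0.33), LAMB3 (-0.24) and PTK2 (-0.21) in IRS-1 #20, COL4A1 (-0.26) in IRS-2 #6 and TLN2 (-0.25) in IRS-1 #10. COL4A1 went the other way in IRS-1 #20 (0.27, limma adjusted p = 0.0187). Further rises past the adjusted p included ZYX (0.29), ITGA1 (0.30) and MYLK (0.32) in IRS-1 #20, and ITGA5 (0.32), MYL9 (0.35) and LAMB2 (0.37) in IRS-2 #6. Without letter B, COL4A5 passed 1.5-fold in IRS-1 #20 (0.60) and IRS-2 #6 (0.67).

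A wider list of 71 further adhesion genes was written with earlier results of these data known, so its counts are not a test of the list. Of these genes 64 were measured, and 2 to 3 were called after 4 h of IGF-I in each clone, where 0.0860% to 0.303% of all genes were. After 24 h limma called 0, with 12, 10, 9 and 11 of them at an unadjusted p under 0.05. THBS1, the matrix protein thrombospondin, rose by 0.84 to 1.07 and FHL2, a LIM protein, by 0.78 to 0.98 in all 4 clones at 4 h. THBS1 was lower with IGF-I at 24 h in IRS-1 #20 (-0.53, adjusted p = 0.000427). VCL, vinculin, which binds talin and actin, rose by 0.62, 0.60 and 0.75 in IRS-1 #20, IRS-2 #1 and IRS-2 #6. For IRS-1 #10 its difference was 0.14 (adjusted p = 0.164). Averaged by isoform, its 4 h response differed by 0.29 (limma adjusted p = 0.000862), a test that 0.440% of all genes passed. The error of that test leaves out the spread between clones, and VCL rose more in IRS-1 #20 than in IRS-2 #1. The median difference of the 64 genes at 4 h ran from -0.02 to 0.04. At 24 h 5, 5, 0 and 4 of them passed the adjusted p alone, where 11.0%, 10.4%, 4.55% and 5.76% of all genes did. In SFM 6 of the 64 were called higher and 2 lower in the clones labelled IRS-2, against 3.22% and 1.77% of all genes. TNC, the matrix protein tenascin, which was singled out after its values were seen, was at 4.96 to 5.79 on SFM arrays labelled IRS-1 and 9.76 to 10.85 on those labelled IRS-2, a difference of 5.04 (adjusted p = 3.02e-43). The hyaluronan receptor CD44 (1.12), ACTN2 (0.80), the kindlin FERMT1 (0.77), FHL2 (0.65) and THBS1 (0.63) were the other higher genes, and LPP, a relative of zyxin (-0.84), and RND1 (-0.66) the lower ones. For FHL2 and THBS1 the IRS-1 clones differed by 1.14 and 0.96 (#20 minus #10), whereas IRS-2 #1 minus IRS-1 #20 gave 0.04 (adjusted p = 0.443) and 0.09 (adjusted p = 0.31).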

How the data were processed

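RNA of 48 samples in 16 groups was profiled on 3 HG-U133 Plus 2.0 arrays (Affymetrix) per group. As deposited by the authors, values are log2 probe set summaries made with GC-RMA in GeneData Refiner. GCRMA is listed in the submitters' processing notes with no version, and the methods' further step to the untreated state is not in these values. Raw intensities were not used, which leaves the signal over background unknown. Precision is limited by the number of arrays. Of 54675 probe sets, 41097 carry a single symbol in the platform annotation. Of a gene's single-symbol probe sets, the brightest on average represented it.

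After removal of 62 control probe sets, limma 3.58.1 in R 4.3.3 fitted 1 mean per group to the remaining 54613, and eBayes moderated the variances along the intensity trend (32 residual degrees of freedom). Calls needed a Benjamini-Hochberg adjusted p under 0.05 over all probe sets and 1.5-fold. Shares of all genes refer to the 19775 genes represented likewise. Figures were drawn with matplotlib 3.10.9 under Python 3.11.15, and tables were summarized with pandas 2.3.3 on numpy 2.4.6.

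The members, the wider list and the markers were chosen with earlier results of these data known. Every member is named. Values per array (lowest, median and highest where a clone has 6) are given for members called after IGF-I or separating the isoforms in all clone pairs, and of the wider list the genes called after IGF-I in both clones of an isoform are named. Alternatives were quantile normalization, median centring, removal of probe sets that reach a log2 of 5 on fewer than 3 arrays, variances without trend, averaging of all probe sets of a gene, a replicate block, each letter left out, the methods' t-test and no fold threshold. The contrasts averaged over clones and between times were added after seeing the data.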

Additional observations from a re-analysis of the deposited data

Results flagged for a closer look

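The mean response to IGF-I differed between the clones of the isoforms for 1 member, RND3 at 24 h. The clones labelled IRS-2 minus those labelled IRS-1 gave -0.34. Of the 4 clones, IRS-1 #20 had the largest response (0.45), and without letter B the difference was lost (-0.32, limma adjusted p = 0.164). The response differed between the times, as 24 h minus 4 h over the 4 clones, by -0.54 for RND3. It differed by -0.43 for ZYX and by -0.33 for RHOB (-0.37 to -0.13 over the other settings). Smaller differences between times were -0.23 for ITGA2, -0.18 for MYL9, 0.21 for TNS1 and 0.14 for TLN2. All of these passed limma's adjusted p in a test of the difference itself with all arrays. Between times, those of ITGA2, MYL9, TNS1 and TLN2 lost it when some of the letters were left out.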

How the results depend on the processing

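Of 47 calls of a member in a comparison, each under 9 alternatives, 390 of 423 values kept direction and threshold, 33 lost the threshold and 0 reversed. With no fold threshold, 2, 5, 4 and 4 members were called at 4 h (IRS-1 #10, IRS-1 #20, IRS-2 #1, IRS-2 #6) and 6 in at least 1 clone, and at 24 h 3, 5, 2 and 1, and 6 in at least 1 clone. The methods' t-test with Benjamini-Hochberg adjustment called 0 at 4 h in IRS-2 #6 and in any clone. In IRS-1 #20 at 4 h, where 0 were called, ZYX was called under quantile normalization (1) and with probe sets averaged per gene (1). The latter also left 3 of the 6 members called between isoforms in SFM, 1 of 3 that separate them and 1 of 2 between the IRS-2 clones. MYL9 (0.56), ITGA2 (0.49) and TNS3 (0.32) were lost there between isoforms, and quantile normalization lost RND3 (0.57) and TNS3 (0.53) and called LAMA5 lower (-0.60). Leaving out a letter gave 1 to 1 member in IRS-1 #20 at 4 h (ZYX without A or B, RND3 without C), and 0 to 1 in IRS-1 #20 and in any clone at 24 h (COL4A5 without C). Between times in SFM it gave 1 to 2 in IRS-1 #20, 0 to 1 in IRS-2 #6 and 1 to 2 in any clone. With the replicate block, 2 members were called at 4 h in IRS-2 #6, as without it, and it changed no count of calls. Past the adjusted p alone, the replicate block lost LAMB2 at 24 h in IRS-2 #1 (adjusted p = 0.0550) and TLN2 between times (adjusted p = 0.0503). Deviations from the group mean were compared over 24 pairs of an IGF-I and an SFM array with the same letter, clone and time. They correlated at -0.47 to 0.305 (median -0.071), and 3 pairs were over 0.1. With 3 arrays per group, this cannot show whether the letters stand for matched cultures. The cause of a change was not tested.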
